A study of Mus musculus with 6 samples.

Results

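Retinoic acid receptors, the proteins that bind and carry retinoids, and the enzymes that set retinoic acid levels were followed in 4434 cells. This mouse melanoma line carries a Braf mutation. The 9 genes were Rara, Rarb, Rarg, Rxra, Crabp1, Crabp2, Stra6, Dhrs3 and Cyp26b1. They were chosen by symbol, and all 12 probe sets that the platform annotation gives to exactly 1 of them were used, out of 45101 probe sets on the array. Expression was measured at day 20 on 6 Affymetrix arrays. In 3 of them RNA came from cells given doxycycline (+ dox), which switched on Oct4, Sox2 and Klf4 from a tetracycline-responsive lentiviral vector that also holds a blasticidin resistance gene. The other 3 came from control cells that carried the same vector, with the vector for the transactivator, and were kept in medium without doxycycline (− dox). The methods describe blasticidin selection after doxycycline was added, so doxycycline, selection and the factors cannot be told apart in this comparison. They describe no retinoid treatment. The methods speak of independent experiments for the study in general but do not say of these arrays that replicates were independent cultures, and the p-values therefore cover nothing but variation among these samples, possibly technical in part.

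Retinoic acid is made from retinol inside cells. Retinol enters with the help of Stra6, is oxidised to retinaldehyde by retinol dehydrogenases such as Rdh10, and then to retinoic acid by the Aldh1a enzymes. Dhrs3 turns retinaldehyde back into retinol, Crabp1 and Crabp2 bind retinoic acid in the cytosol, and Cyp26 enzymes oxidise and clear it. In the nucleus it binds Rara, Rarb or Rarg, each of which pairs with an RXR protein such as Rxra on response elements in DNA, and corepressors are then exchanged for coactivators. Retinoic acid is known to slow growth and promote differentiation in cultured melanoma cells, and several genes of the pathway, among them Rarb, Stra6, Dhrs3 and the Cyp26 genes, are themselves retinoic acid targets.

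The Rarb promoter is shown because its retinoic acid response element, next to the start site, is the textbook example. The promoter windows of Cyp26b1 and Dhrs3 are shown because these genes had the largest differences between the groups among the 9. Each window runs from 250 bases before to 50 bases after a RefSeq start site (GRCm38.p6), written 5′ to 3′ on the strand of the gene. Rarb lies at chr14:16575427-16575726 on the minus strand, Cyp26b1 at chr6:84593761-84594060 on the minus strand, and Dhrs3 at chr4:144892577-144892876 on the plus strand. Capitals in the Rarb window mark the half-sites of its direct repeat.
Rarb promoter: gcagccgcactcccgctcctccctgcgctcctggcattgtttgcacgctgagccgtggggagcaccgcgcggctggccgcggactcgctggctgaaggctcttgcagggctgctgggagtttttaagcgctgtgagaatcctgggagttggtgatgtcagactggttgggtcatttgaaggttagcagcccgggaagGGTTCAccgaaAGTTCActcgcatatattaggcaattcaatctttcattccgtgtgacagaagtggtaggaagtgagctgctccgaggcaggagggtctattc
Cyp26b1 promoter: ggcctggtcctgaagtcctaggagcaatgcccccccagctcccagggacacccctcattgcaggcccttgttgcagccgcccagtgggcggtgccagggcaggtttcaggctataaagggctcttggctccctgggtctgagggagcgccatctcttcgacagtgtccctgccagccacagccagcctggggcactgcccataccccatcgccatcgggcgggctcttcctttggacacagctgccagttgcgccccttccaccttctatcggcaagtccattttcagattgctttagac
Dhrs3 promoter: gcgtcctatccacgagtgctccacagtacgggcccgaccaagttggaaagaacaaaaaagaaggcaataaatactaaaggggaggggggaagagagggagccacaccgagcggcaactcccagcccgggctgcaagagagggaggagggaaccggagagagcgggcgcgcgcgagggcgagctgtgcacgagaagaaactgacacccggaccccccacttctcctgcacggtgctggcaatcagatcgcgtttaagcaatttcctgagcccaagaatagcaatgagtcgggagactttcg

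The search used 4 half-sites on both strands, which were AGGTCA as the common form, then GGGTCA as a variant, then AGTTCA as another one, and lastly GGTTCA as the variant opening the Rarb element. It counted pairs in the same direction separated by 5 bases (DR5), 2 bases (DR2) or 1 base (DR1). Promoter windows were given for 8 of the 9 genes, 18 windows in all. The Rarb window held a DR5 pair at positions −53 to −37 from the start site, the capitals above. It held 3 half-sites in all, and the one outside the pair, GGGTCA, is in lower case upstream of it. The other 17 windows held no such pair, and the Cyp26b1 window and the Dhrs3 window shown held no half-site either. Over all 32851 promoter windows, 0.0974% held a DR5 pair, 0.588% held any of these pairs and 43.7% held at least 1 half-site. A match in letters is a description of the sequence, and a window without a match says nothing about elements elsewhere in the gene.

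On the first principal component (57.4% of the variance) the + dox arrays had scores of −15.7, −58.6 and −72.7 and the − dox arrays 37.5 to 59.1, which placed + dox 1 closest to the control group. The second component (21.6%) set − dox 1, with a score of −59.8, apart from the other control arrays, with 29.8 and 34.0. Results are therefore also given without both arrays numbered 1. Those arrays were picked from these same values, so a pass without them is no independent support. Calls over all probe sets also rose without them, by the counts given with Rarg below. Of 10 melanocyte markers, Tyr and Mlana had log2 expression values below the lower quartile, which is 3.84 to 3.90 over the arrays, on every array, and Tyrp1 lay at 3.50 to 4.03. The other defining markers included Sox10 at 6.12 to 6.46 and Mitf at 6.17 to 8.15 (change −0.76, limma adjusted p = 0.386). As a list the melanocyte markers did not move one way, with 6 higher and 4 lower means and a median change of 0.025 on the log2 scale, and Pmel, Dct, Oca2 and Slc45a2 had changes of −0.10 to 0.06. Gpnmb, a melanosomal glycoprotein gene, fell by 2.62 (adjusted p = 0.0261), a call lost when any array numbered 2 or 3 was left out (up to 0.120). It was the only one of the 10 with an unadjusted p under 0.05, and with it the linear sum of the list was 409.7 to 544.7 in + dox arrays and 1030 to 2028 in controls. Summed in the same way, 6 muscle markers reached 619 to 2131 in + dox arrays and 3834 to 6453 in controls, and 7 keratinocyte markers 585 to 1659 against 198.5 to 236.9. In the keratinocyte list 5 means were higher and 2 lower, with a median change of 0.09. Krt14 and Krtdap were its 2 called genes and the only ones with an unadjusted p under 0.05. Krt14 was called whichever array was left out. Krtdap also rose (limma adjusted p = 0.0376). It stayed higher in all 6 fits with an array left out, but its call was lost in 5 of them (adjusted p up to 0.155). All 6 muscle markers were lower at an unadjusted p under 0.05, where 10.6% of all genes were, and 0 were called. Without + dox 1 the muscle genes Acta1 and Myh3 passed (adjusted p = 0.000265 and 0.0043), where all arrays gave −3.02 and −3.12 (adjusted p = 0.0763 and 0.0581). By the same sum, fibroblast markers reached 580.3 to 970.6 in + dox arrays and 994.1 to 1754 in controls. That sum leans on Col3a1, the brightest of them, with means of 8.83 in + dox and 10.18 in − dox arrays. As a list the fibroblast markers did not fall, with 5 higher and 2 lower means and a median change of 0.03. Endothelial markers reached 156.7 to 250.6 against 116.9 to 148.7, and immune cell markers 217.8 to 272.2 against 150.5 to 247.7. Higher means numbered 5 in the endothelial and 4 in the immune cell list, and lower means 0 and 1. Fibroblast, immune cell and endothelial markers had 0 calls, with 2, 0 and 1 genes at an unadjusted p under 0.05. Their lowest p-values were those of Dcn (0.85) and Col3a1 (−1.35), Cd68 (1.24) and Cd14 (0.24), and Tek (1.61) and Cdh5 (0.30), with adjusted p from 0.0700 to 0.523. The part of these markers in the results below was not tested.

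Whether partial reprogramming altered the retinoid pathway was read from the difference between + dox and − dox cells. None of the 12 probe sets passed the test (limma on all probe sets, Benjamini-Hochberg adjustment, threshold 0.05), against 2.53% of all 45037 probe sets tested (1.64% higher, 0.884% lower). The lowest adjusted p among them was 0.136. Before adjustment 3 had a p under 0.05, 2 higher (Dhrs3 and Cyp26b1) and 1 lower (Rara) in + dox cells, and in the same 3 the groups did not overlap. Over all probe sets 18.5% had an unadjusted p under 0.05 (9.12% higher, 9.35% lower) and 23.4% did not overlap (12.0% higher, 11.4% lower), so 3 of 12 lay near the background. Values are RMA expression values on the log2 scale, and a change is + dox minus − dox. In RNA from whole cultures, fewer cells of a type and less RNA per cell cannot be told apart.

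**Figure D1:**
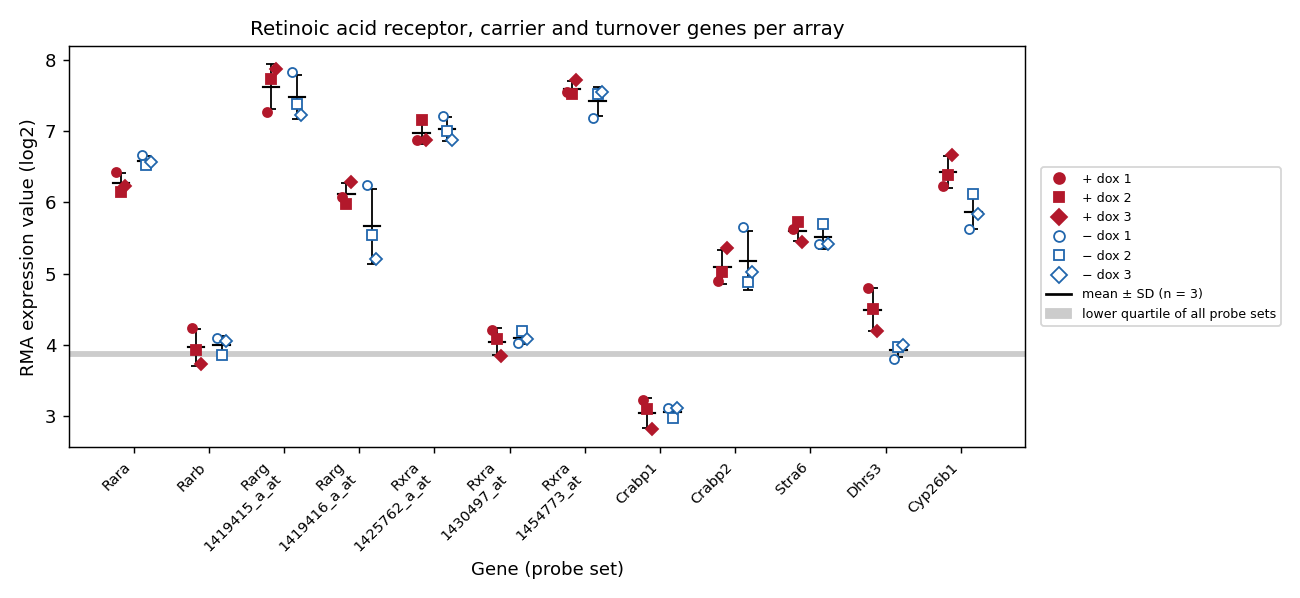
RMA expression value (vertical axis, log2) of the 12 probe sets of the 9 retinoid genes (horizontal axis) on each array. Red filled markers stand for + dox and blue open ones for − dox, with a shape per array number, black bars are the mean ± SD of 3 arrays, and the grey band is the lower quartile of all probe sets on the 6 arrays; the groups are apart in Rara, Dhrs3 and Cyp26b1 and overlap in the other 9 probe sets.

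Among the receptors, Rara is the most widely expressed retinoic acid receptor gene. Its probe set 1450180_a_at stood at 6.42, 6.15 and 6.23 in + dox arrays 1, 2 and 3 and at 6.66, 6.52 and 6.57 in the − dox arrays. All + dox values lay below all − dox values. The difference was −0.32 (SE 0.11, 95% confidence interval −0.57 to −0.06), and it did not pass the test over all probe sets (limma adjusted p = 0.185). It kept its sign in all 16 alternative settings, with changes from −0.39 to −0.26 and adjusted p values from 0.109 to 0.444.

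Rarb, the receptor gene with the DR5 element shown above, had low values. Those of probe set 1454906_at were 4.24, 3.93 and 3.73 in + dox and 4.10, 3.86 and 4.05 in − dox arrays, with 2 of the 6 below the array's lower quartile. The groups overlapped, and the difference was −0.04 (interval −0.40 to 0.33, adjusted p = 0.936).

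Rarg, the receptor gene known for its role in skin, had 2 probe sets. Probe set 1419416_a_at stood at 6.07, 5.98 and 6.29 in + dox and at 6.24, 5.54 and 5.21 in − dox arrays, so − dox 1 alone lay within the + dox range. Probe set 1419415_a_at stood at 7.27, 7.73 and 7.87 against 7.83, 7.38 and 7.23, and there + dox 1 and − dox 1 were each nearer to the other group. Over the 6 arrays the changes were 0.45 (SE 0.26, interval −0.17 to 1.07, adjusted p = 0.433) and 0.14 (interval −0.37 to 0.66, adjusted p = 0.797).

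Without both arrays numbered 1, Rarg was the only gene of the 9 to pass. The change of 1419416_a_at was then 0.76 (limma adjusted p = 0.0463) and that of 1419415_a_at 0.495 (adjusted p = 0.0623), with 2 arrays per group. With these 4 arrays 5142 of all 45037 probe sets were called, against 1138 with all 6. Leaving out − dox 1 on its own gave 0.74 and 0.32, and the first of these had an adjusted p of 0.0656.

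Rxra, the partner receptor gene, was covered by 3 probe sets. Probe set 1454773_at stood at 7.55, 7.52 and 7.71 in + dox and 7.18, 7.52 and 7.55 in − dox arrays (0.18, interval −0.14 to 0.49, adjusted p = 0.554). Probe set 1425762_a_at ran from 6.88 to 7.15 in + dox arrays and from 6.88 to 7.21 in controls (−0.06, interval −0.37 to 0.25). Probe set 1430497_at lay low, at 3.84 to 4.21 and 4.03 to 4.19 (−0.06, interval −0.35 to 0.24). The groups overlapped in all 3 probe sets, and the signs differed between them.

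Neither cytosolic carrier showed a difference beyond its replicate spread. Crabp1 (1448326_a_at) lay between 2.82 and 3.23 on every array, below the array's lower quartile throughout, with a difference of −0.02 (interval −0.33 to 0.29, adjusted p = 0.968). Crabp2 (1451191_at), which hands retinoic acid to the nuclear receptors, stood at 4.90, 5.03 and 5.36 in + dox and at 5.65, 4.88 and 5.02 in − dox arrays. Here − dox 1 was the highest of all 6, and the difference was −0.09 (interval −0.63 to 0.46, adjusted p = 0.897). Without both arrays numbered 1 it was 0.245 (adjusted p = 0.410).

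Stra6 (1422723_at), the membrane receptor for circulating retinol-binding protein, ranged from 5.45 to 5.72 in + dox arrays and from 5.41 to 5.70 in controls. The groups overlapped almost fully, and the difference was 0.09 (interval −0.21 to 0.39, adjusted p = 0.781).

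Both enzymes that lower retinoic acid or its precursor had higher values in + dox arrays. Dhrs3 (1448390_a_at) stood at 4.80, 4.50 and 4.19 in + dox and at 3.81, 3.97 and 4.0 in − dox arrays. The groups did not overlap, though + dox 3 lay only just above the highest − dox array, and 1 of the 6 values was below the array's lower quartile. The difference was 0.57 (SE 0.17, interval 0.17 to 0.97), with an adjusted p of 0.136. Its change ran from 0.36 without both arrays numbered 1 to 0.72 without + dox 3, and it passed in none of its 15 alternative settings.

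Cyp26b1 (1460011_at), whose product hydroxylates retinoic acid, stood at 6.23, 6.39 and 6.67 in + dox and at 5.63, 6.11 and 5.84 in − dox arrays. All + dox arrays were above all − dox arrays. The difference was 0.57 (SE 0.17, interval 0.17 to 0.97, adjusted p = 0.140), close to a 1.48-fold higher level. Across the 16 alternatives it lay between 0.45 and 0.70 and the adjusted p between 0.0864 and 0.365.

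For 11 of the 12 probe sets the 95% interval of the change, taken singly, lay within a 2-fold change in either direction. The exception was Rarg 1419416_a_at, whose interval reached 1.07.

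**Figure D2:**
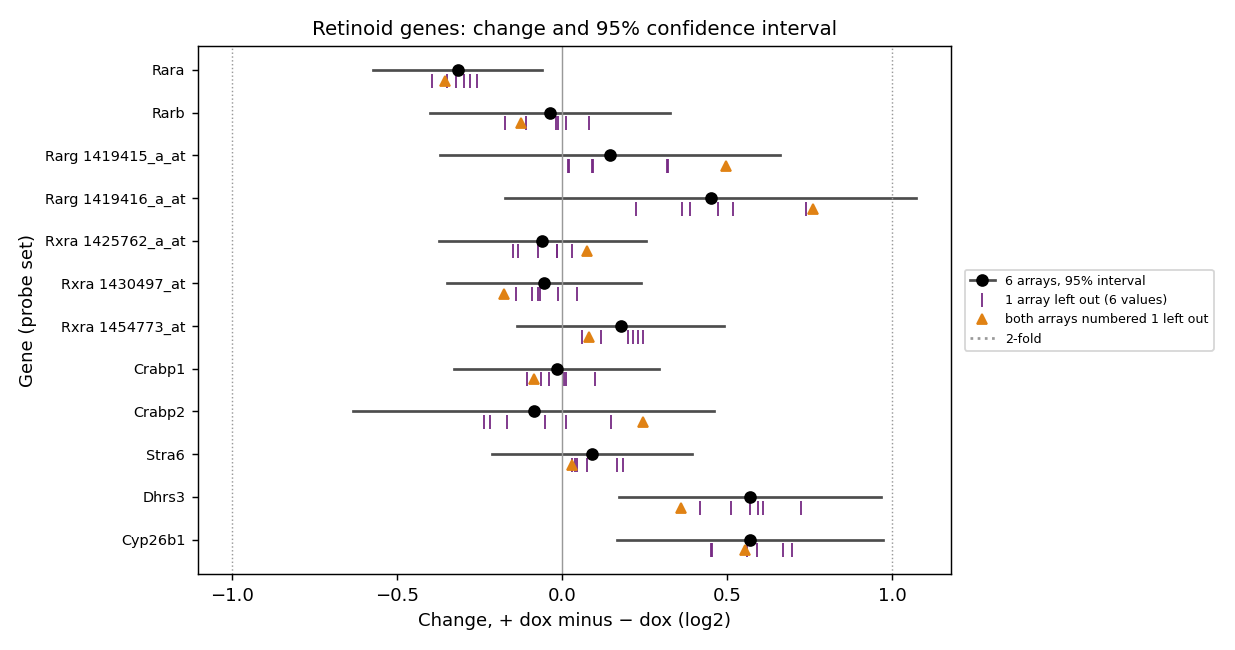
Change between + dox and − dox cells (horizontal axis, log2) for each probe set of the 9 retinoid genes (vertical axis). Black points and grey lines are the change and its 95% confidence interval over 6 arrays, purple ticks the 6 changes with 1 array left out, orange triangles the change without both arrays numbered 1, and dotted lines a 2-fold change; the interval leaves out 0 in Rara, Dhrs3 and Cyp26b1, and Rarg 1419416_a_at moves from 0.45 to 0.76 without both arrays numbered 1.

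Other genes of the pathway were read from 5 lists, with each gene represented by its probe set of highest mean. Of 98 listed genes 86 were measured, and 4 rose and 2 fell, against 3.44% of all 18193 genes called in either direction (2.28% higher, 1.15% lower). Before adjustment 12 were higher and 19 lower at a p under 0.05, where 21.7% of all genes were (11.1% higher, 10.6% lower). In 36 the groups did not overlap, 16 higher and 20 lower, where 26.9% of all genes did not (14.3% higher, 12.6% lower). The median change was −0.08, beside 0.01 over all genes. The genes that changed belonged to synthesis, to the coactivators and to the targets.

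Retinoid uptake, storage and synthesis genes gave 1 rise and 0 falls among 31 measured (median −0.04). The count of falls depends on the probe set taken for Lrp2. Its brightest had −0.98 (limma adjusted p = 0.151), while a slightly dimmer one fell by 1.45 (adjusted p = 0.0478). Aldh1a1, which oxidises retinaldehyde to retinoic acid, stood at 5.33, 6.07 and 7.26 in + dox and at 3.09, 3.21 and 3.34 in − dox arrays. The groups were far apart, although the − dox values were all under the lower quartile of the array and the size of the rise is approximate. Aldh1a1 rose by 3.01 (SE 0.45, adjusted p = 0.0291), and the call did not hold when array 2 of either group or − dox 3 was left out (adjusted p at most 0.120).

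The other retinaldehyde dehydrogenase genes were not called. Aldh1a2 had a change of −0.04 (adjusted p = 0.925) at 3.76 to 4.16, and the brightest probe set of Aldh1a3 had 0.19 (adjusted p = 0.451). Rdh10, the retinol dehydrogenase that feeds this step, stood at 9.22, 9.43 and 9.73 in + dox and 8.79, 8.14 and 7.99 in − dox arrays. The groups did not overlap. Its change of 1.15 (SE 0.24) narrowly missed the test over all probe sets (adjusted p = 0.0643). It passed in 3 of 16 alternative settings, which were adjustment over 1 probe set per gene (adjusted p = 0.0478), without − dox 1 (1.40, adjusted p = 0.0205) and without both arrays numbered 1 (1.515, adjusted p = 0.00381). It did not pass with the mean of both probe sets (0.96, adjusted p = 0.111), with the replicate number as a block (adjusted p = 0.121) or without any other single array (up to 0.216). The other Rdh10 probe set had 0.76 (adjusted p = 0.280), with − dox 1 inside the + dox range.

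Of 5 other receptor, carrier and breakdown genes 0 rose and 0 fell (median −0.29), with 3 at an unadjusted p under 0.05. Rxrb, the partner receptor gene related to Rxra, stood at 9.35, 9.0 and 8.76 in + dox and 10.29, 9.47 and 9.54 in − dox arrays. All + dox values were lower, but the difference of −0.73 (SE 0.26) had an adjusted p of 0.201, and only without both arrays numbered 1 did it pass (−0.625, adjusted p = 0.0374). Cyp26a1, a sister enzyme of Cyp26b1 and a well-known retinoic acid target, had −0.37 (adjusted p = 0.223), with values from 4.23 to 4.56 in + dox and 4.55 to 4.90 in controls. These groups touched, and the sign was opposite to that of Cyp26b1; the difference between the 2 genes was not tested.

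Receptor corepressors and coactivators gave 0 rises and 1 fall among 20 measured genes. Their median change was −0.27, and 17 of the 20 had a lower mean in + dox cells, where 8684 of all 18193 genes did. At an unadjusted p under 0.05, 0 were higher and 7 lower, where 11.1% and 10.6% of all genes were. In 9 of the 20 all + dox arrays lay below all − dox arrays, where 12.6% of all genes did. Ncoa1, a coactivator of nuclear receptors, fell from 9.06, 8.37 and 8.68 in − dox to 7.80, 7.48 and 7.27 in + dox arrays (−1.19, SE 0.21, adjusted p = 0.0453). Another Ncoa1 probe set fell by 1.08 (adjusted p = 0.0224), and the dimmest, under the lower quartile on all arrays, had −0.17. The related coactivator gene Ncoa3 had −0.55 (adjusted p = 0.0704). The call of Ncoa1 was kept without + dox 1 and lost when any other array was left out (adjusted p up to 0.170).

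Other nuclear receptors that pair with RXR gave 0 calls among 11 measured (median 0.12), with 3 at an unadjusted p under 0.05. The orphan receptor gene Nr4a1 had 0.77 (adjusted p = 0.199), with values of 6.89 to 7.53 in + dox and 6.09 to 6.97 in controls. Its relative Nr4a2 had −0.26 (adjusted p = 0.248). Without both arrays numbered 1 Nr4a1 passed (1.055, adjusted p = 0.0371).

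**Figure D3:**
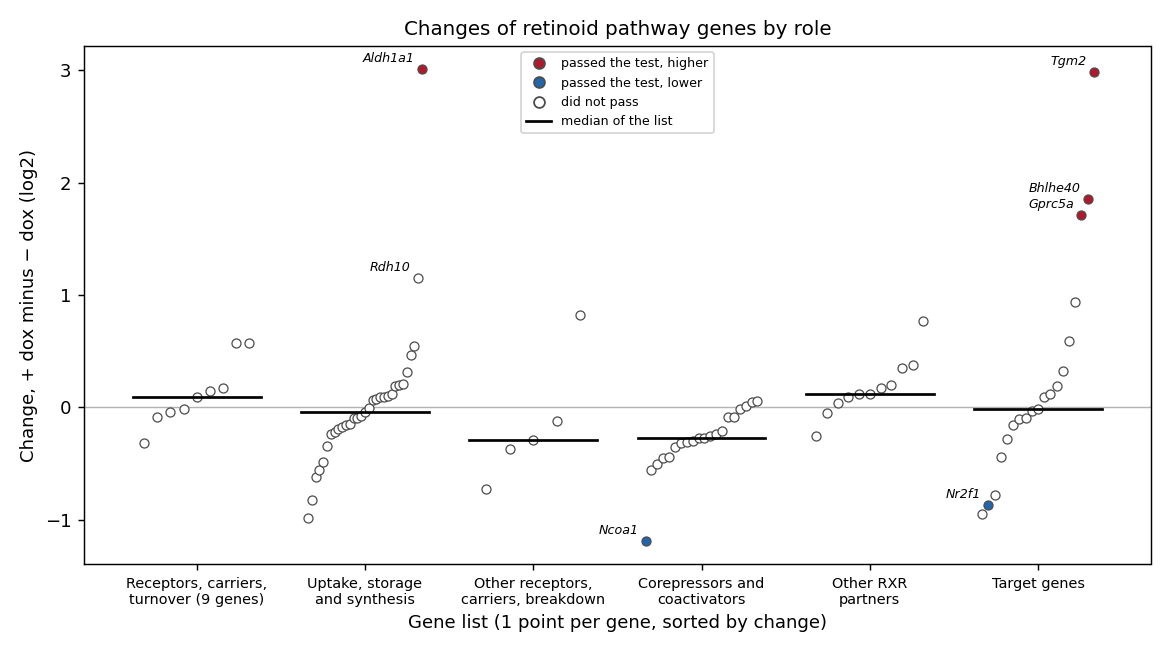
Change between + dox and − dox cells (vertical axis, log2) of the 9 retinoid genes and of 5 lists of other pathway genes (horizontal axis), 1 point per gene at its brightest probe set and sorted by size within each list. Filled red and blue points passed the test and open points did not, and black lines are list medians; the 9 genes lie between −0.32 and 0.57, while Aldh1a1 and Tgm2 stand near 3 and the corepressor and coactivator list has its median at −0.27.

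Textbook retinoic acid target genes moved both ways. Of 19 measured, 3 rose and 1 fell, where 2.28% of all genes rose and 1.15% fell, and the median was −0.02. In 11 of the 19 the groups did not overlap, 8 higher and 3 lower, where 14.3% of all genes were higher so and 12.6% lower. Bhlhe40, a transcriptional repressor gene also found as retinoic acid-inducible, stood at 11.05, 10.87 and 11.03 in + dox and at 9.23, 9.08 and 9.07 in − dox arrays. It rose by 1.86 (SE 0.10, 3.62-fold, adjusted p = 0.000808) and was called whichever array was left out.

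Tgm2, the tissue transglutaminase gene, rose by 2.98 (SE 0.53, adjusted p = 0.0444), from 7.63, 6.18 and 6.15 in − dox to 8.73, 10.01 and 10.17 in + dox arrays. Both arrays numbered 1 lay on the inner side of their groups. Of its 5 other probe sets, 2 were also called, with 2.41 and 2.99, and the others had 2.89, 1.16 and 0.13. Gprc5a, a receptor gene first described as induced by retinoic acid, stood at 7.64, 8.39 and 8.96 against 6.60, 6.76 and 6.50 and rose by 1.71 (SE 0.31, adjusted p = 0.0483).

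Nr2f1, an orphan nuclear receptor gene that retinoic acid induces in embryonic cells, fell. Its values were 7.53, 7.30 and 7.30 in + dox and 8.20, 8.18 and 8.35 in − dox arrays (−0.87, SE 0.11, adjusted p = 0.0198). The 2 groups were well separated. Calls of Tgm2 and Nr2f1 did not hold when any array numbered 2 or 3 was left out, nor did that of Gprc5a, which also needed − dox 1 (highest adjusted p 0.170, 0.0996 and 0.179).

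Targets among the 9 genes and their relatives did not share a sign. Rarb had −0.04, Cyp26a1 −0.37, Cyp26b1 0.57, Dhrs3 0.57 and Stra6 0.09, and none of these passed. Of 5 Hox genes measured, patterning genes that retinoic acid induces in embryos, none was called. Hoxa4 had 0.32 (adjusted p = 0.211), with all + dox arrays above all − dox arrays and 4 of the 6 values below the array's lower quartile. Hoxb5 had −0.95 (adjusted p = 0.0992) with all + dox arrays below, while the groups overlapped in Hoxa5 (−0.78), Hoxb4 (−0.15) and Hoxb1 (−0.10).

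**Figure D4:**
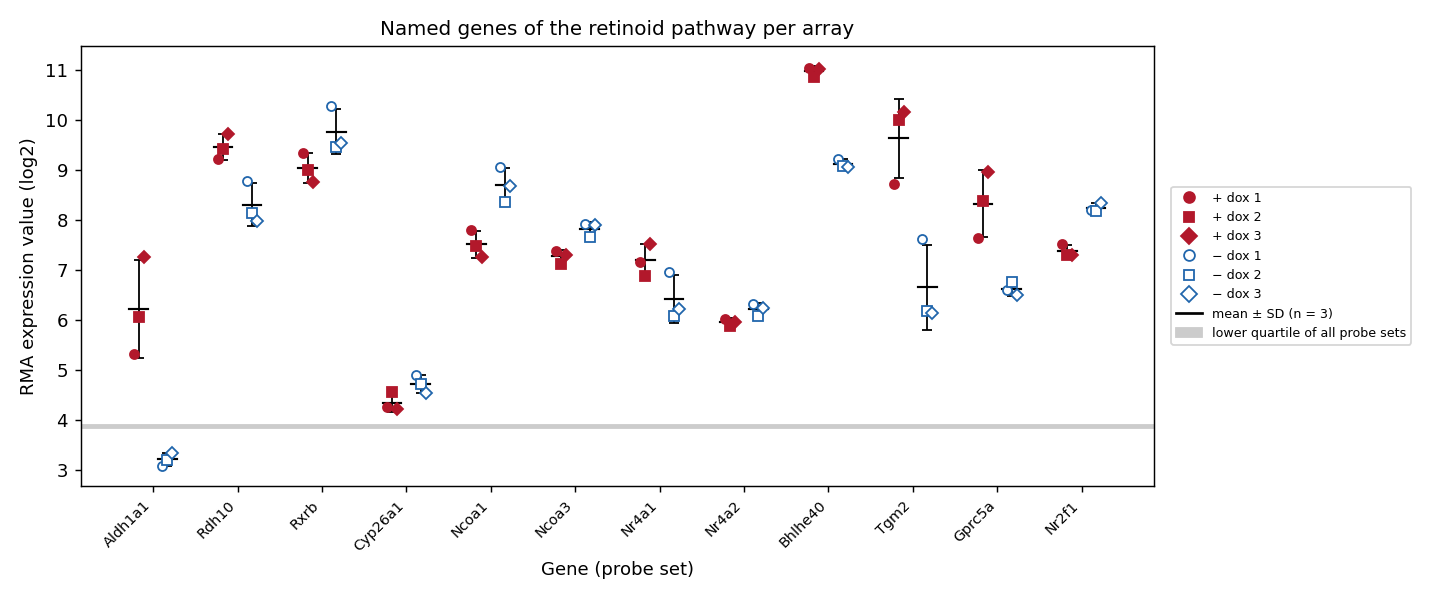
RMA expression value (vertical axis, log2) of the 12 genes that the rule names from the pathway lists (horizontal axis) on each array, drawn as in the plot of the 9 genes by array. Bhlhe40 lies at 10.87 to 11.05 in + dox arrays and 9.07 to 9.23 in controls, Aldh1a1 is under the grey band in all − dox arrays, and the groups overlap in Cyp26a1 and Nr4a1.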

How the data were processed

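Total RNA from 6 samples of 4434 cells, 3 per labelled group, was hybridised to Affymetrix Mouse Genome 430 2.0 arrays. RMA was run by the authors in Chipster before deposit, and the deposited table holds log2 values per probe set and array. Which Chipster version and which chip definition were used is not given in the sources used here. That the scale is log2 follows from the values (2.08 to 14.44, column medians 5.33 to 5.37), which are levels of single arrays, not centred. RMA compresses differences between low values, and precision is limited by having 3 arrays a group.

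Array controls (64) were removed, and linear models with empirical Bayes moderation were fitted to the other 45037 probe sets in limma 3.58.1 (R 4.3.3). Group was the sole factor, tests were two-sided, and Benjamini-Hochberg adjustment ran over every probe set at a threshold of 0.05. No filter on low values was used; a 20% filter kept 11 and a 40% filter 8 of the 12 probe sets. Gene symbols were those of the platform annotation of 2016, and RefSeq names of GRCm38.p6 changed 0 of them. The test was also checked on simulated data.

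The 9 genes, 5 pathway lists and 6 marker lists were chosen with earlier results of these data known. Every probe set of the 9 genes is named. From each list the text takes at most 4 called genes by size of change, or else the 2 lowest p-values if fewer than 2 were called. Aldh1a2, Aldh1a3, Tyr, Mlana, Tyrp1, Sox10, Pmel, Dct, Oca2, Slc45a2, the Hox genes and second probe sets were added after their values were seen. Alternatives covered a block for the replicate number, 2 gene tables, both filters, trended and robust moderation, 2 scalings, left-out arrays, and an unadjusted threshold combined with a 2-fold limit. The main fit did not use the replicate numbers for pairing. Deviations of same-numbered arrays from their group means correlated at −0.0523, −0.0377 and 0.212, and results with the replicate number as a block are given below.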

Additional observations from a re-analysis of the deposited data

How the results depend on the processing

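The count of 0 called among the 12 probe sets of the 9 retinoid genes held in 15 of 16 alternative settings; without both arrays numbered 1 it was 1, beside 5142 calls over all probe sets and 18 of 86 pathway genes, where all 6 arrays gave 1138 and 6. With the replicate number as a block the counts were 0, 466 and 2, and this block changed no call of the 9 genes; among the named pathway genes Ncoa1, Tgm2, Gprc5a and Nr2f1 lost their calls (adjusted p = 0.0503, 0.103, 0.0744 and 0.0596), as did the marker gene Krtdap (0.0563). Leaving out 1 array gave 111 to 2351 calls over all probe sets and 1 to 11 among pathway genes. The lowest counts over all probe sets came without − dox 3 (111), − dox 2 (159), + dox 3 (184) and + dox 2 (197), and the highest without + dox 1 (2351). Small differences crossed 0 when 1 array was left out, with ranges of −0.173 to 0.0817 for Rarb, −0.15 to 0.03 for Rxra 1425762_a_at, −0.14 to 0.045 for Rxra 1430497_at, −0.11 to 0.10 for Crabp1 and −0.24 to 0.15 for Crabp2. Without both arrays numbered 1 Rxra 1425762_a_at had 0.075 and Crabp2 0.245. None of these differences was called. What sets the arrays apart was not tested. Scaling the columns again moved the median change of all probe sets by at most 0.01. Low values of Crabp1, Rarb, Dhrs3 and Rxra 1430497_at limit what their differences can show.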

Other observations

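Dhrs3 had the lowest adjusted p of the 9 genes (limma adjusted p = 0.136). Of 18192 other genes, those whose values over the 6 arrays, each centred on its own mean, lay closest to it were Gm17586, Lrp8 and Scd3, with mean absolute differences of 0.0783, 0.0817 and 0.0889 on the log2 scale. Lrp8, a lipoprotein receptor gene, stood at 8.47, 8.01 and 7.72 in + dox and at 7.57, 7.60 and 7.53 in − dox arrays. Scd3, a fatty acid desaturase gene, stood at 5.70, 5.55 and 5.39 against 4.93, 5.04 and 4.92. In all 4 genes + dox 1 was the highest array, while on the first principal component + dox 1 lay nearest to the − dox side. None of the 3 passed the test (limma adjusted p = 0.0655 for Gm17586, 0.228 for Lrp8 and 0.0533 for Scd3).

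Pathway genes outside those that the rule names went both ways. Rai14, a gene first found as retinoic acid-induced, had higher values in every + dox array at 2 of its 4 probe sets, with 0.59 and 0.83 (limma adjusted p = 0.0980 and 0.0617), and the groups overlapped at the others (0.65 and 0.33). Rpe65, a retinoid isomerase gene, had 0.47 (adjusted p = 0.0798) with 4 of 6 values below the lower quartile, and the brighter probe set of the receptor kinase gene Ret had 0.94 (adjusted p = 0.152). The 3 probe sets of the retinol dehydrogenase gene Rdh14 all had lower values in every + dox array, with changes of −0.83, −0.85 and −0.63 (limma adjusted p = 0.107, 0.0700 and 0.141). Both probe sets of the alcohol dehydrogenase gene Adh7 did so too, with −0.56 and −0.64 (adjusted p = 0.161 and 0.120). Lrp2, an endocytic receptor gene, had −0.98 (adjusted p = 0.151) at its brightest probe set, and a dimmer one fell by 1.45 (adjusted p = 0.0478). The groups overlapped at the dimmest Lrp2 probe set, which had −0.21 (adjusted p = 0.59). These genes were chosen after their values were seen.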
